A study of Danio rerio with 8 samples.

Results

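The mitochondrial solute carrier family 25 (SLC25) was examined in bulk RNA sequencing libraries of zebrafish hearts. Its members were taken as the genes whose symbol in the authors' normalised read table begins with slc25a and a digit, which gave 52 of the 31953 genes in the count table. All 52 also carry an SLC25 name in a second table of gene names, 51 of them with the same member number; the gene called slc25a22 in the deposited table (ENSDARG00000020893) is called slc25a55a there. A further 7 genes have an SLC25 name in the second table but no symbol of the stated form in the deposited one, where 2 of them are written in capitals, and were not counted as members. The 8 libraries form 4 groups of 2. Young hearts came from untreated larvae 3 days old, about 500 hearts to a library. Control hearts came from adult fish given the vehicle, 0.1% dimethyl sulfoxide, and stand at day 0. The hearts called 3 dpi and 7 dpi were collected 3 and 7 days post injury, after ventricular cardiomyocytes had been ablated with 5 mM metronidazole in the same vehicle for 48 hours. Adult libraries pooled 4 to 6 hearts of fish about 6 months old. The drug acts through a bacterial nitroreductase fused to mCherry and driven by the promoter of the ventricular myosin gene vmhc; the labels list several lines, wild-type AB among them, without tying each library to 1 of them. Metronidazole without ablation was not among the groups, so drug and ablation cannot be told apart. Whether the pools of a group stem from separate experiments is not stated, and p-values measure only the spread between these samples, which may be technical.

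SLC25 proteins sit mostly in the inner mitochondrial membrane, where they carry nucleotides, phosphate, carboxylates, amino acids, coenzymes and metal ions between cytosol and matrix. The ADP/ATP carriers export the ATP made by oxidative phosphorylation, and the phosphate carrier brings in the phosphate that ATP synthase consumes. In mammals SLC25A4 is the main ADP/ATP carrier of heart and skeletal muscle, SLC25A5 is associated with proliferating cells and SLC25A6 is widely expressed. Heart muscle, which depends on fatty acid oxidation, also relies on the acylcarnitine carrier SLC25A20 and on carriers of the malate-aspartate shuttle.

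The 8 libraries held 10868019 to 26628897 counts. Mitochondrially encoded transcripts took 24.7% and 28.2% of counts at 7 dpi, against 7.14% to 15.3% in the other 6 libraries, and the 7 dpi libraries detected 17785 and 18744 genes, against 20660 to 23312. Levels are given below as CPM, read counts scaled to library size and adjusted between libraries by the trimmed mean of M values (TMM). Scaling matters in these libraries: with library totals alone the median log2 fold change of all genes moved by 0.44 for 3 dpi against control, by -1.24 for 7 dpi against control, by -1.68 for 7 dpi against 3 dpi and by 0.60 for young against control. The prefixes of the column names differ between young, 7 dpi and the other adult libraries, whereas 3 dpi and control share 1 prefix, so a sequencing run cannot be told apart from the group in any comparison with young or 7 dpi. In bulk samples fewer cells of a type and less RNA per cell cannot be told apart. None of the marker lists used for cell types had a gene at 0 in every library. Summed cardiomyocyte markers stood at 3713 and 3730 CPM in young hearts, 56700 and 65520 CPM in control, 16680 and 33880 CPM at 3 dpi and 160200 and 119800 CPM at 7 dpi. 

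At 3 dpi more SLC25 genes fell than rose against control, though most passed in neither direction and library totals made the split nearly even, and at 7 dpi and in young hearts members passed in both directions. Of the 52 members, 49 had enough counts to be tested; slc25a24l, slc25a29 and slc25a51a did not. At 3 dpi 2 members rose and 11 fell against control (edgeR quasi-likelihood test, adjusted p under 0.05), which is 4.08% and 22.4% of the tested members, beside 9.05% higher and 6.55% lower among all 19330 genes tested. The median log2 fold change of the members was -0.43, beside 0.003 for all genes. Under library totals the split became 4 higher and 5 lower, beside 3518 higher and 537 lower among all 19330 genes. The members' median became 0.01, beside a median of 0.44 for all genes. At 7 dpi 9 members rose and 12 fell against control, 18.4% and 24.5%; the shares of all genes were 18.7% and 20%, so the family's counts were close to those of the transcriptome. With library totals the members' counts were 3 and 25, beside 729 higher and 11041 lower among all genes. From 3 dpi to 7 dpi 19 members were higher and 13 lower, 38.8% and 26.5%, beside 22.8% and 28.1% of all genes. Library totals gave 5 and 29 members, beside 864 higher and 13072 lower among all genes. In young hearts 16 members were higher than in adult control and 8 lower, 32.7% and 16.3%, beside 32.6% and 27.6% of all genes. Library totals gave 23 and 4 members, beside 8640 higher and 3389 lower among all genes. The comparisons of 3 dpi, 7 dpi and young with control share the same 2 control libraries and are not independent of one another.

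**Figure D1:**
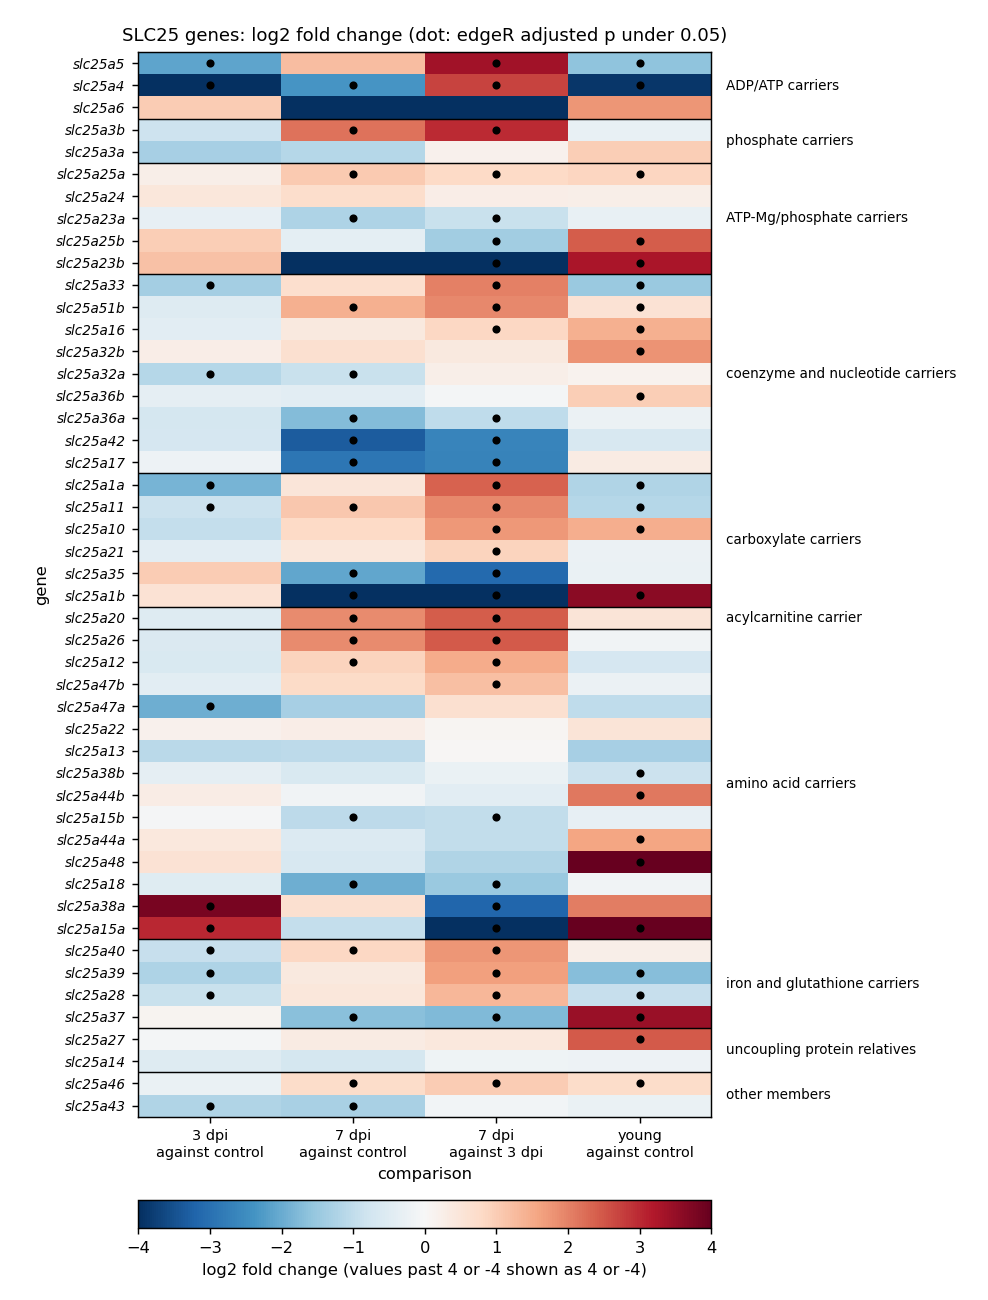
Log2 fold changes of the tested SLC25 genes reported by name (rows, grouped by substrate) in the 4 comparisons (columns) from TMM-scaled counts; red is higher and blue lower in the group named first, and a dot marks an edgeR adjusted p under 0.05. In the column for 3 dpi against control the dots lie on 2 red and 11 blue cells, and in that for 7 dpi against 3 dpi on 19 red and 13 blue cells. Colours of slc25a6 and slc25a23b at 7 dpi come from genes with 0 counts there and depend on the prior count.

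Single libraries weighed on the counts of members and also on those of all genes tested, as given near the end. At 3 dpi 3 members passed without control replicate 2, 5 without 3 dpi replicate 1, 8 without control replicate 1 and 13 without 3 dpi replicate 2. The calls for 2 of the 13, slc25a4 and slc25a39, were kept in every alternative run, namely other scalings, no filter, DESeq2, the replicate block, fits of the 2 groups alone and each library left out. At 7 dpi against control 11 members passed without control replicate 1 and 18 to 21 without each of the other libraries, and 9 of 21 calls were kept throughout. Against 3 dpi 11 of 32 calls were kept throughout, and for young hearts 12 of 24. In the account below, a call that was lost without some library is followed by its adjusted p or its log2 fold change without it. Calls lost with no filter, with the replicate block or in a fit of 2 groups alone are listed near the end.

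The ADP/ATP carriers showed the largest fall of the family at 3 dpi in slc25a4 (ENSDARG00000027355). Its level was 4.68 and 4.35 CPM in young hearts, 80.3 and 54.2 CPM in control, 1.51 and 2.49 CPM at 3 dpi and 16.5 and 9.88 CPM at 7 dpi. All control values lay above those of the other 6 libraries, and no groups overlapped. The log2 fold change was -5.06 at 3 dpi (SE 0.38, edgeR adjusted p = 7.6e-05, n = 2 libraries per group here and throughout), -2.35 at 7 dpi (SE 0.33, adjusted p = 0.000646) and -3.89 in young hearts (SE 0.35, adjusted p = 8.3e-06), each against control. Between 3 and 7 dpi it was higher by 2.71 (SE 0.36, adjusted p = 0.000199). Each of these 4 calls was kept in every alternative run.

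The carrier that took most reads, slc25a5 (ENSDARG00000092553), stood at 6060 and 6073 CPM in young hearts, 14830 and 21960 CPM in control, 3204 and 5236 CPM at 3 dpi and 48830 and 37310 CPM at 7 dpi. The 3 dpi libraries were the lowest and the 7 dpi libraries the highest, without overlap between groups. At 3 dpi slc25a5 fell by 2.12 against control on the log2 scale (SE 0.46, adjusted p = 0.0125), and this call was lost without 3 dpi replicate 1 (adjusted p = 0.0618) and in the fit of these 2 groups alone (adjusted p = 0.0673). It was lower in young hearts than in control (-1.60, SE 0.45, adjusted p = 0.0104), a call lost without young replicate 1 (adjusted p = 0.0839) or young replicate 2 (adjusted p = 0.0861). At 7 dpi it was higher than at 3 dpi by 3.35 (SE 0.48, adjusted p = 0.000301). Against control the 7 dpi difference of 1.23 (SE 0.45) was at the threshold without passing it (adjusted p = 0.05). The adjusted p was 0.041 with relative log expression factors, 0.0275 with no filter, 0.000115 by DESeq2, 0.047 in the 2 groups alone and 0.0372 without control replicate 2, whereas with library totals the difference was -0.01.

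slc25a6 (ENSDARG00000005853) was near the limit of detection. It had 13 and 24 counts in young hearts, 5 and 0 in control, 4 and 10 at 3 dpi, and 0 in both 7 dpi libraries. With 3 counts over the 7 dpi group taken as the limit, its level there was at least 2.94-fold below that at 3 dpi. This bound, and the one given for slc25a23b below, takes the 3 dpi counts as exact. It covers counting error at 7 dpi alone and no spread between libraries. The same bound against control, 1.31-fold, rests on control replicate 1, since control replicate 2 also had 0 counts. No comparison of slc25a6 passed the test; the difference between 7 and 3 dpi passed with library totals (adjusted p = 0.0133) and with no filter (adjusted p = 0.0314), and young against control passed without control replicate 1 (adjusted p = 0.0423).

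The make-up of the ADP/ATP carrier reads does not depend on scaling between libraries. Of the reads of slc25a4, slc25a5 and slc25a6 together, slc25a4 took 0.0772% and 0.0716% in young hearts, 0.539% and 0.246% in control, 0.0470% and 0.0476% at 3 dpi, and 0.0339% and 0.0265% at 7 dpi. The exact 95% binomial intervals, which cover counting error only, ran from 0.0307% to 0.0688% and from 0.0351% to 0.0631% at 3 dpi, against 0.506% to 0.573% and 0.230% to 0.262% in the control libraries. The intervals of both control libraries lay above those of the other 6, and they did not overlap each other. slc25a5 took 99.46% to 99.97% of these reads in every library. Shares are of reads and are not adjusted for transcript length, which was not used here. An exact permutation test of 2 against 2 libraries cannot give a p below 0.333, and the mean share of 0.0473% at 3 dpi against 0.392% in control had that value (two-sided). The 3 genes are related in sequence, and their values are uncertain to the extent that shared reads were split between them, since the treatment of such reads is not stated.

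**Figure D2:**
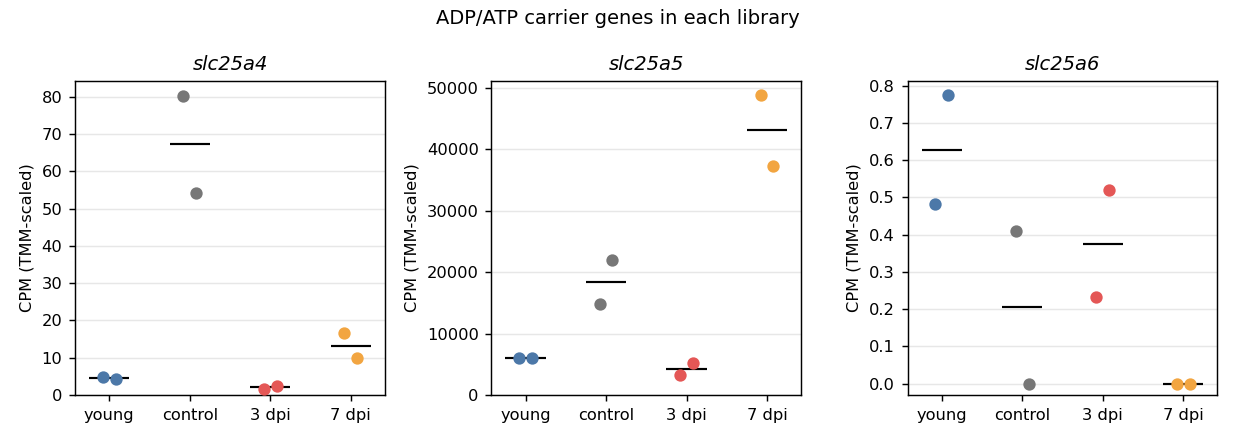
CPM (TMM-scaled, linear axes that differ between panels) of the ADP/ATP carrier genes in each library; points are libraries and bars the mean of 2. slc25a4 stands at 16.5 CPM or less in the young, 3 dpi and 7 dpi libraries, against 80.3 and 54.2 CPM in control, slc25a5 is highest at 7 dpi, where library totals would place it level with control, and slc25a6 is at 0 at 7 dpi.

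Of the pair of phosphate carriers slc25a3b (ENSDARG00000025566) took nearly all reads and rose at 7 dpi. It stood at 861 and 881 CPM in young hearts, 984 and 1171 CPM in control, 508 and 718 CPM at 3 dpi and 5305 and 4400 CPM at 7 dpi. The 7 dpi libraries were above all others. It was 2.17 higher at 7 dpi than in control on the log2 scale (SE 0.31, adjusted p = 0.000735) and 2.99 higher than at 3 dpi (SE 0.32, adjusted p = 7.08e-05), and both calls were kept in every alternative run. The 3 dpi value of -0.81 (SE 0.30, adjusted p = 0.0943) and the young value of -0.31 did not pass. slc25a3a stayed between 0.0830 and 4.03 CPM and passed in no comparison.

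The ATP-Mg/phosphate carriers, which adjust the matrix pool of adenine nucleotides and are regulated by calcium, were higher in young hearts for 3 of 5 tested members and passed for none at 3 dpi. Of all genes tested, 32.6% were higher in young hearts, and 9.05% were higher and 6.55% lower at 3 dpi. slc25a25b had 15.4 and 18.8 CPM in young hearts against 3.44 and 3.01 CPM in control (2.41, SE 0.40, adjusted p = 0.000473). It was lower at 7 dpi, with 1.37 and 3.49 CPM, than at 3 dpi, with 6.54 and 6.34 CPM (-1.39, or -0.88 without 7 dpi replicate 1, adjusted p = 0.0792, and -2.24 without 7 dpi replicate 2). Its pair slc25a25a was higher in young hearts by 0.85, which did not pass without young replicate 2 (adjusted p = 0.0705) or control replicate 1 (adjusted p = 0.0703). At 7 dpi slc25a25a was 1.05 above control and 0.80 above 3 dpi, but library totals turned these values to -0.19 and -0.89. The latter passed as lower (adjusted p = 0.014). Its calls at 7 dpi were lost without 7 dpi replicate 2 (0.68, adjusted p = 0.0794 against control and 0.45, adjusted p = 0.198 against 3 dpi), without control replicate 1 (adjusted p = 0.0522) and without 3 dpi replicate 2 (adjusted p = 0.100). slc25a23a was lower at 7 dpi than in control (-1.22, adjusted p = 0.0507 without control replicate 1) and than at 3 dpi (-0.90, adjusted p = 0.0513 to 0.0992 without 3 dpi replicate 1 or either 7 dpi library). slc25a23b had 49 and 54 counts in young hearts against 4 and 1 in control, and 0 in both libraries at 7 dpi against 9 and 6 at 3 dpi, at least 3.15-fold lower; its calls were lost without single libraries (adjusted p = 0.0524 to 0.075 for young replicate 1, young replicate 2 or control replicate 2, and 0.0612 to 0.0678 for 7 dpi replicate 1, 7 dpi replicate 2 or 3 dpi replicate 1). slc25a24 passed in no comparison.

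Carboxylate carriers moved in opposite directions within a group. slc25a11, the oxoglutarate carrier of the malate-aspartate shuttle, had 87.0 and 90.4 CPM in young hearts, 187 and 203 CPM in control, 82.0 and 132 CPM at 3 dpi and 415 and 401 CPM at 7 dpi. The groups did not overlap except that the young values lay within the range of 3 dpi. It was lower than control at 3 dpi (-0.86, SE 0.25) and in young hearts (-1.14, SE 0.25), calls lost under library totals (-0.43, adjusted p = 0.204, and -0.53, adjusted p = 0.0667), and at 7 dpi higher than control (1.07, SE 0.25, or -0.19 under library totals) and than 3 dpi (1.93, SE 0.26, or 0.25 and not passing under library totals). The 3 dpi call was lost without 3 dpi replicate 1 (-0.56, adjusted p = 0.278), control replicate 1 (adjusted p = 0.0647) or control replicate 2 (adjusted p = 0.161), and the 7 dpi call without control replicate 1 (adjusted p = 0.0585). slc25a1a, of the pair of citrate carriers that supply cytosolic citrate, had 8.51 and 11.3 CPM in young hearts, 22.3 and 22.9 CPM in control, 3.19 and 9.19 CPM at 3 dpi and 32.99 and 30.2 CPM at 7 dpi. Its log2 fold change at 3 dpi was -1.86 (SE 0.40), with -2.82 without 3 dpi replicate 2 and an adjusted p of 0.0687 without control replicate 2, and at 7 dpi it stood 2.34 above 3 dpi (1.76 without 3 dpi replicate 1, 3.30 without 3 dpi replicate 2, and 0.67 with an adjusted p of 0.159 under library totals). The lower level in young hearts (-1.19; -0.58 and not passing under library totals) was lost without young replicate 1 (adjusted p = 0.116), control replicate 1 (adjusted p = 0.0515) or control replicate 2 (adjusted p = 0.0746).

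The other citrate carrier gene, slc25a1b, went the opposite way. It had 10.5 and 12.4 CPM in young hearts against 1.39 and 0.531 CPM in control, a rise of 3.61 (SE 0.58, adjusted p = 0.000366) that was kept in every alternative run. At 7 dpi it had 1 count over both libraries, against 52 at 3 dpi, a ratio of 0.0306 with an exact counting interval of 0.000759 to 0.178. Against the 26 counts in control the 7 dpi ratio was 0.0488 (0.00119 to 0.297), a call lost without 7 dpi replicate 2 (adjusted p = 0.0563) or control replicate 1 (adjusted p = 0.0648). slc25a10, the dicarboxylate carrier, was higher in young hearts, at 43.9 and 35.5 CPM, than in control, at 14.1 and 14.8 CPM (1.46, SE 0.32, adjusted p = 0.00265). At 7 dpi it stood 1.74 above 3 dpi, or 1.13 without 7 dpi replicate 1 and 0.03 under library totals. slc25a21, the oxoadipate carrier, was 0.88 higher at 7 dpi than at 3 dpi, but passed as lower under library totals (-0.81, adjusted p = 0.024). The call under TMM was lost without 3 dpi replicate 1 (0.85), 3 dpi replicate 2 (0.87) or 7 dpi replicate 2 (0.70). slc25a35 had 0.548 and 0.249 CPM at 7 dpi against 4.23 and 2.70 CPM at 3 dpi (-3.11, SE 0.69, adjusted p = 0.00363). Against control its 7 dpi value of -2.08 was lost without 7 dpi replicate 2 (adjusted p = 0.15) or control replicate 1 (adjusted p = 0.221).

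slc25a20, the carnitine/acylcarnitine carrier that brings fatty acids into the matrix for oxidation, rose at 7 dpi. It stood at 64.1 and 54.0 CPM in young hearts, 38.1 and 44.9 CPM in control, 29.4 and 28.5 CPM at 3 dpi and 180 and 128 CPM at 7 dpi. The 7 dpi libraries were the highest and the 3 dpi libraries the lowest. The log2 fold change at 7 dpi was 1.89 against control (SE 0.23, adjusted p = 0.000409) and 2.41 against 3 dpi (SE 0.24, adjusted p = 5.11e-05), calls kept in every alternative run; at 3 dpi and in young hearts the values of -0.52 and 0.51 did not pass.

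Among 14 tested amino acid carriers 2 rose and 1 fell at 3 dpi, beside 9.05% and 6.55% of all genes tested. Both that rose had low counts in control. slc25a15a, of the pair of ornithine carriers known from the urea cycle, had 299 and 293 counts in young hearts, 3 and 10 in control, 66 and 63 at 3 dpi and 5 and 0 at 7 dpi. In CPM these were 11.1 and 9.45, 0.246 and 0.590, 3.82 and 3.27, and 0.457 and 0. Young hearts were highest and 3 dpi next, and control and 7 dpi overlapped. The log2 fold change was 4.54 in young hearts (SE 0.69, adjusted p = 0.000255) and 3.01 at 3 dpi (SE 0.68, adjusted p = 0.0156), and 7 dpi was below 3 dpi by -3.97 (SE 0.79, adjusted p = 0.00201); without 7 dpi replicate 1 the remaining library has 0 counts and a fitted value would depend on the prior count. The 3 dpi call was lost without 3 dpi replicate 1 (adjusted p = 0.0593), control replicate 1 (adjusted p = 0.0776) or control replicate 2 (adjusted p = 0.0629). slc25a38a, of the pair of glycine carriers needed for heme synthesis, had 52 and 36 counts at 3 dpi against 1 and 4 in control (3.81, SE 0.83, adjusted p = 0.0129). Its 3 dpi call was lost without 3 dpi replicate 1 (adjusted p = 0.0844), control replicate 1 (adjusted p = 0.0717) or control replicate 2 (adjusted p = 0.0696). At 7 dpi slc25a38a had 4 and 2 counts, -3.18 against 3 dpi (SE 0.80, adjusted p = 0.00752). Its pair slc25a38b ranged from 18.1 to 34.4 CPM over the 8 libraries and was lower in young hearts than in control (-0.85), a call lost without young replicate 1 (adjusted p = 0.0764) and under library totals (-0.25).

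slc25a48, known as a choline carrier in mammals but counted here among the amino acid carriers, had the largest rise of the family in young hearts. Its level was 15.5 and 11.5 CPM there against 0.246 and 0.295 CPM in control, a log2 fold change of 5.59 (SE 0.53, adjusted p = 1.14e-05), and all adult libraries lay at or below 0.463 CPM. The pair slc25a44a and slc25a44b, whose mammalian counterpart carries branched-chain amino acids, was also higher in young hearts. slc25a44b had 29.4 and 25.1 CPM in young hearts against 6.64 and 5.96 CPM in control (2.11, SE 0.27, adjusted p = 7.57e-05). For slc25a44a the rise of 1.57 was lost without young replicate 2 (adjusted p = 0.0695) or control replicate 2 (adjusted p = 0.0558).

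At 7 dpi the amino acid carriers divided. slc25a26, which imports S-adenosylmethionine for methylation in the matrix, had 18.99 and 15.7 CPM in young hearts, 16.1 and 22.3 CPM in control, 11.9 and 14.02 CPM at 3 dpi and 83.0 and 60.4 CPM at 7 dpi. It was 1.90 above control (SE 0.26, adjusted p = 0.000586) and 2.46 above 3 dpi (SE 0.26, adjusted p = 6.68e-05), kept in every alternative run. slc25a12, the calcium-regulated aspartate/glutamate carrier, had 383 and 299 CPM at 7 dpi against 196 and 175 CPM in control, but its value of 0.88 was lost without any 1 of the 4 libraries (adjusted p = 0.0652 to 0.198) and was -0.39 under library totals. Against 3 dpi the difference in slc25a12 was 1.49 (SE 0.30), or -0.20 under library totals. slc25a18, a glutamate carrier, was lower at 7 dpi, with 3.20 and 4.07 CPM, than in control, with 17.1 and 11.5 CPM (-1.96, SE 0.37, adjusted p = 0.00252, kept in every alternative run), and than at 3 dpi (-1.47, adjusted p = 0.0512 without 3 dpi replicate 2). slc25a15b was lower at 7 dpi than in control by -1.03 (adjusted p = 0.103 without 7 dpi replicate 2 and 0.0636 without control replicate 1) and than at 3 dpi by -0.98 (adjusted p = 0.0507 to 0.113 without 3 dpi replicate 1, 3 dpi replicate 2 or 7 dpi replicate 2).

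The gene called slc25a22, described in the deposited table as a glutamate carrier and in the other table named slc25a55a, varied little between groups. It ranged from 332 to 533 CPM over the 8 libraries and passed in no comparison, with log2 fold changes between 0.08 and 0.50. slc25a13 passed in none either. slc25a47a was lower at 3 dpi than in control by -1.96 (adjusted p = 0.042), a call lost under library totals (adjusted p = 0.101) and without any 1 of the 4 libraries (adjusted p = 0.0801 to 0.153). slc25a47b was higher at 7 dpi than at 3 dpi by 1.21, or -0.46 under library totals, with 0.69 (adjusted p = 0.24) without 3 dpi replicate 1, 2.00 without 3 dpi replicate 2, and an adjusted p of 0.0928 or 0.0864 without 7 dpi replicate 1 or 2.

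Of 10 tested coenzyme and nucleotide carriers 1 rose and 4 fell at 7 dpi against control, beside 18.7% and 20% of all genes tested. slc25a42, the coenzyme A carrier of the inner membrane, had 20.8 and 21.3 CPM in young hearts, 35.2 and 30.6 CPM in control, 16.2 and 25.1 CPM at 3 dpi and 1.55 and 4.98 CPM at 7 dpi. The 7 dpi libraries lay below all others, with a log2 fold change of -3.32 against control (SE 0.44, adjusted p = 0.000524) and -2.64 against 3 dpi (SE 0.43, adjusted p = 0.000606). slc25a17, a carrier of coenzymes in the peroxisomal rather than the mitochondrial membrane, had 7.77 and 9.25 CPM in young hearts, 7.38 and 6.26 CPM in control, 5.67 and 6.03 CPM at 3 dpi and 0.457 and 1.33 CPM at 7 dpi. It was lower at 7 dpi by -2.90 against control (SE 0.47, adjusted p = 0.00125) and by -2.69 against 3 dpi (SE 0.47, adjusted p = 0.000944). These 4 calls were kept in every alternative run. By contrast slc25a51b, whose human counterpart imports NAD, was higher at 7 dpi, with 47.7 and 56.5 CPM, than in control, with 17.7 and 21.5 CPM (1.41, SE 0.22, or 0.17 and not passing under library totals), and higher than at 3 dpi by 1.91 (0.22 and not passing under library totals). Its value of 0.57 in young hearts was lost without young replicate 1 (adjusted p = 0.224), young replicate 2 (adjusted p = 0.107) or control replicate 1 (0.36, adjusted p = 0.252).

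Carriers of pyrimidine nucleotides did not move together. slc25a33 had 53.7 and 60.3 CPM in young hearts, 125 and 196 CPM in control, 50.3 and 74.5 CPM at 3 dpi and 253 and 257 CPM at 7 dpi. It was lower than control at 3 dpi (-1.36, SE 0.27, adjusted p = 0.00929) and in young hearts (-1.49, SE 0.27, adjusted p = 0.000907), and 2.03 higher at 7 dpi than at 3 dpi (0.35 and not passing under library totals). The 3 dpi call was lost without 3 dpi replicate 1 (adjusted p = 0.0755) or control replicate 2 (adjusted p = 0.071). slc25a36a was lower at 7 dpi, with 5.30 and 9.13 CPM, than in control, with 22.8 and 24.96 CPM (-1.72, SE 0.30, adjusted p = 0.00166), and than at 3 dpi (-1.03, lost without 3 dpi replicate 1, adjusted p = 0.0668, or with -0.69 without 7 dpi replicate 1, adjusted p = 0.102). Its pair slc25a36b was higher in young hearts, with 50.7 and 48.7 CPM, than in control, with 25.3 and 25.4 CPM (0.97, adjusted p = 0.0529 without control replicate 1). slc25a32a, of the pair of folate carriers, was lower than control at 3 dpi (-1.13, adjusted p = 0.0581 without control replicate 2 and 0.0602 under library totals) and at 7 dpi (-0.89, adjusted p = 0.0791 without 7 dpi replicate 2), whereas slc25a32b was higher in young hearts (1.79, SE 0.32, adjusted p = 0.000759). slc25a16 was also higher in young hearts (1.43, SE 0.24, adjusted p = 0.000466). At 7 dpi slc25a16 stood 0.83 above 3 dpi but passed as lower under library totals (-0.86, adjusted p = 0.00602). The call under TMM was lost without 3 dpi replicate 1 (0.62) or 7 dpi replicate 2 (0.76).

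Of the 4 iron and glutathione carriers 3 fell at 3 dpi, beside 6.55% of all genes tested. Under library totals the calls of slc25a40 (-0.49, adjusted p = 0.21) and slc25a28 (-0.43, adjusted p = 0.112) were lost. slc25a39, known in mammals as the mitochondrial glutathione carrier, had 16.1 and 17.6 CPM in young hearts, 52.7 and 57.5 CPM in control, 20.2 and 26.96 CPM at 3 dpi and 76.0 and 69.7 CPM at 7 dpi. The groups did not overlap. Its fall at 3 dpi (-1.23, SE 0.21, adjusted p = 0.00484) and its lower level in young hearts (-1.71, SE 0.22, adjusted p = 7.57e-05) were kept in every alternative run, and its level at 7 dpi was 1.63 above 3 dpi (-0.06 under library totals). The related slc25a40 was lower at 3 dpi than in control by -0.92, lost without 3 dpi replicate 1 (adjusted p = 0.264), control replicate 1 (adjusted p = 0.0597) or control replicate 2 (adjusted p = 0.178). At 7 dpi slc25a40 was 1.76 above 3 dpi (0.06 and not passing under library totals) and 0.83 above control (-0.42 under library totals). The call against control was lost without 7 dpi replicate 1 (0.55, adjusted p = 0.209), control replicate 1 (adjusted p = 0.145) or control replicate 2 (adjusted p = 0.0638).

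Of the mitoferrins, which import iron, slc25a37 separated larval from all adult hearts and slc25a28 did not. slc25a37, mitoferrin 1, whose loss in zebrafish blocks hemoglobin production in red cells, had 37.9 and 43.2 CPM in young hearts, 5.98 and 1.65 CPM in control, 3.76 and 4.31 CPM at 3 dpi and 1.01 and 1.33 CPM at 7 dpi. Young hearts stood above all adult libraries (3.44 against control, SE 0.47, adjusted p = 0.000139, kept in every alternative run). Of 9 erythroid markers tested, 2 were higher and 7 lower in young hearts, the higher ones being embryonic globin genes. slc25a37 was lower at 7 dpi than in control by -1.66, with -0.52 (adjusted p = 0.376) without control replicate 1, 0.133 without 7 dpi replicate 1 and 0.0793 without 7 dpi replicate 2 as the adjusted p, and lower than at 3 dpi by -1.78, lost without 3 dpi replicate 2 (adjusted p = 0.052) or either library of 7 dpi (adjusted p = 0.0867 and 0.0504). Summed erythroid markers were at 18760 and 47280 CPM at 7 dpi against 5154 and 14470 CPM in control; their part in these differences was not tested. slc25a28, mitoferrin 2, had 41.8 and 43.2 CPM in young hearts, 72.0 and 87.5 CPM in control, 41.4 and 45.2 CPM at 3 dpi and 113 and 104 CPM at 7 dpi. It was lower at 3 dpi (-0.88, lost without 3 dpi replicate 1, adjusted p = 0.107, or control replicate 2, adjusted p = 0.0859) and in young hearts (-0.91, SE 0.20, adjusted p = 0.00258; -0.29 and not passing under library totals), and 1.33 higher at 7 dpi than at 3 dpi (-0.37 under library totals).

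Relatives of the uncoupling proteins and carriers without an assigned substrate completed the family. slc25a27 had 4.53 and 4.00 CPM in young hearts against 0.574 and 0.944 CPM in control (2.46), lost without any 1 of the 4 libraries (adjusted p = 0.0501 to 0.0979), and slc25a14 passed in no comparison. slc25a43 was lower than control at 7 dpi, with 8.87 and 11.7 CPM against 23.4 and 27.7 CPM (-1.31, SE 0.25, adjusted p = 0.0028, kept in every alternative run), and at 3 dpi, with 11.7 and 10.4 CPM (-1.21, adjusted p = 0.0647 without control replicate 2 and 0.0616 under library totals). slc25a46, which acts in the outer membrane on mitochondrial shape, was higher than control at 7 dpi (0.74, or -0.49 under library totals) and in young hearts (0.74). It was 1.01 higher at 7 dpi than at 3 dpi, but passed as lower under library totals (-0.67, adjusted p = 0.0451). Its calls were lost without 7 dpi replicate 2 (0.39, adjusted p = 0.344, against control and 0.0885 against 3 dpi), without control replicate 1 (adjusted p = 0.196) or control replicate 2 (adjusted p = 0.0652), and in young hearts without young replicate 1 (adjusted p = 0.115), young replicate 2 (adjusted p = 0.108) or control replicate 1 (adjusted p = 0.16).

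Within pairs of related carriers the share of reads, which needs no scaling between libraries, separated young from all adult libraries for the citrate, ornithine and iron carriers and for slc25a23b and slc25a25b. slc25a1b took 55.2% and 52.3% of the reads of slc25a1a and slc25a1b in young hearts, 5.88% and 2.27% in control, 23.6% and 16.5% at 3 dpi and 0.276% and 0% at 7 dpi. slc25a15a took 55.2% and 49.7% of the ornithine carrier reads in young hearts, 2.05% and 4.83% in control, 25.6% and 22.3% at 3 dpi and 6.10% and 0% at 7 dpi. In both pairs the 3 dpi shares lay between those of control and young hearts, without overlap. slc25a37 took 47.6% and 50% of the mitoferrin reads in young hearts, 7.68% and 1.85% in control, 8.33% and 8.71% at 3 dpi and 0.883% and 1.26% at 7 dpi.

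slc25a23b took 14.2% and 11.8% of the reads of slc25a23a and slc25a23b in young hearts, 1.87% and 0.474% in control, 3.86% and 2.83% at 3 dpi, and 0% in both libraries at 7 dpi. slc25a25b took 19.5% and 20.7% of its pair's reads in young hearts, 8.57% and 7.29% in control, 11.7% and 13.7% at 3 dpi and 2.18% and 3.59% at 7 dpi. Other pairs differed in another order. slc25a36b took 72.7% and 69.1% of its pair's reads in young hearts, 52.6% and 50.4% in control, 56.4% and 58.2% at 3 dpi and 72.2% and 72.3% at 7 dpi. slc25a32b took 36.8% and 33.1% in young hearts, 17.6% and 11.8% in control, 30.6% and 31.5% at 3 dpi and 29.9% and 37.2% at 7 dpi, so that control stood below the other 3 groups. slc25a38a took 2.21% and 4.80% in young hearts, 0.238% and 0.688% in control, 12.1% and 5.54% at 3 dpi and 1.70% and 0.702% at 7 dpi. The share of slc25a44a overlapped between young and adult hearts, at 22.5% and 30.0% in young hearts, 37.7% and 29.9% in control, 30.1% and 40.9% at 3 dpi and 22.2% and 33.3% at 7 dpi. For each pair the smallest p of an exact permutation test is again 0.333, so these shares are given without a test.

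**Figure D3:**
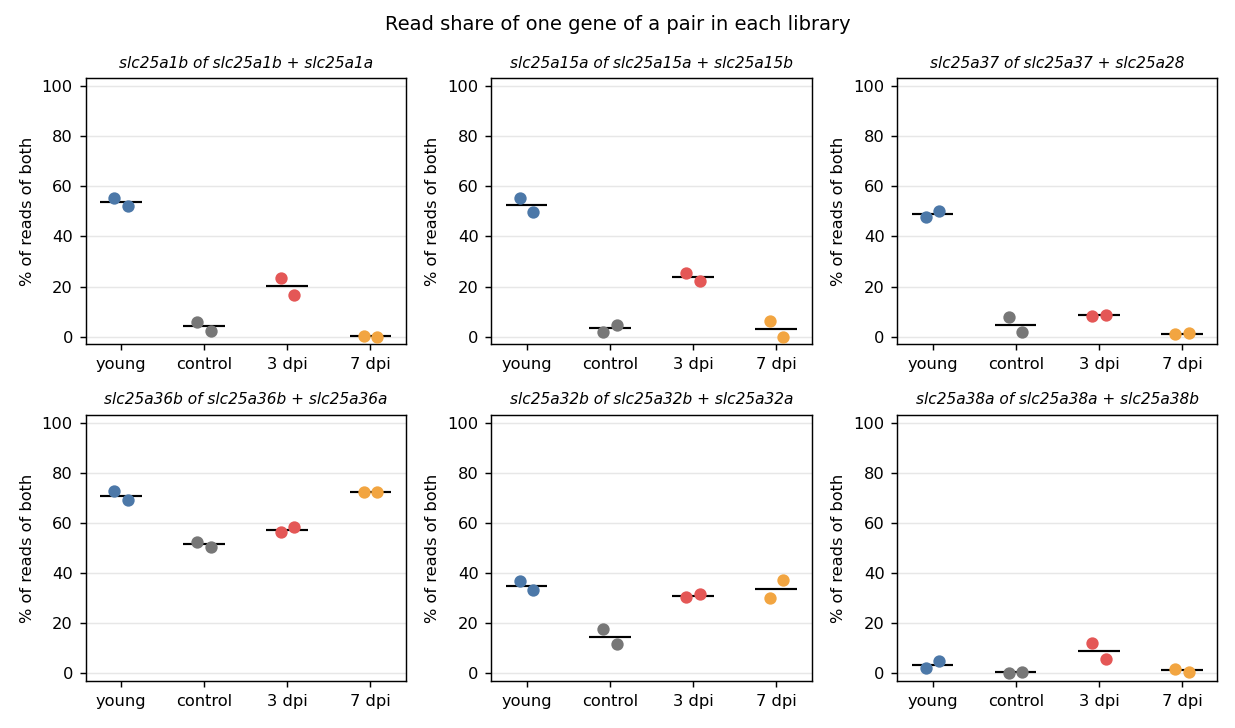
Share of reads (percent) taken by the gene named first in each panel title among the reads of both genes, by library; points are libraries and bars the mean of 2. slc25a1b, slc25a15a and slc25a37 take 47.6% to 55.2% in young hearts and at most 25.6% in any adult library.

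The smaller positive differences at 7 dpi turned negative with library totals, whereas the members called lower kept their sign. Of the 21 calls against control 15 were kept with library totals, and of the 32 calls against 3 dpi 18 were kept. Against 3 dpi slc25a16, slc25a21, slc25a25a and slc25a46 passed as lower with library totals. slc25a3b, slc25a20 and slc25a26 were higher and slc25a4, slc25a17, slc25a18, slc25a36a, slc25a42 and slc25a43 lower at 7 dpi than in control under every alternative run.

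**Figure D4:**
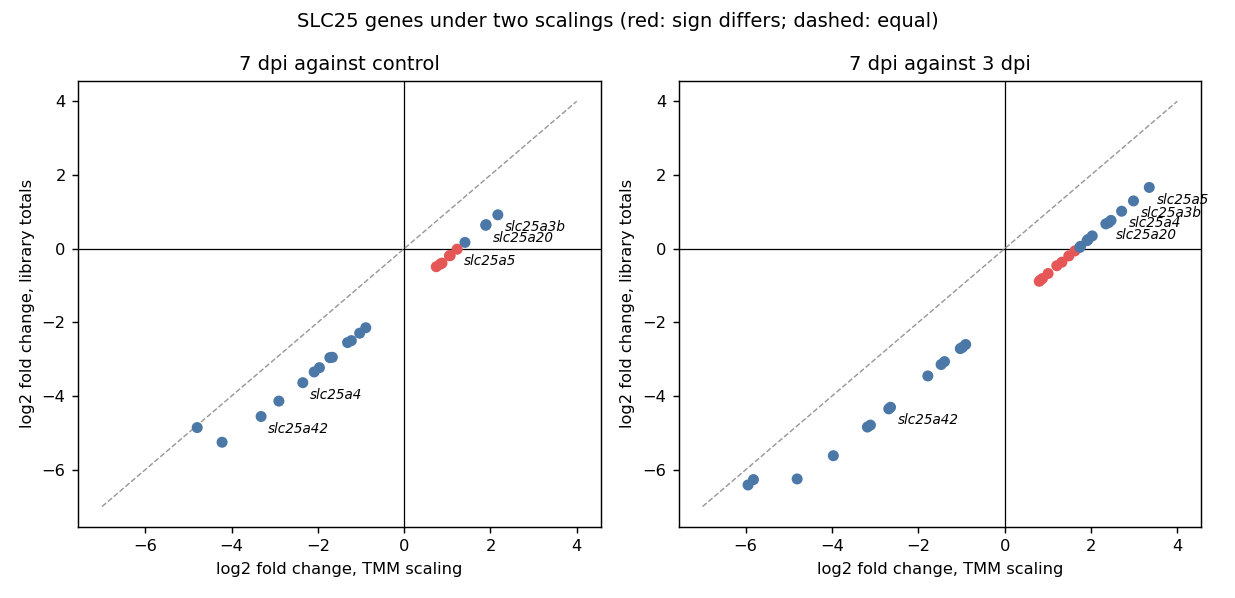
Log2 fold changes of the SLC25 genes called at 7 dpi against control (left) and against 3 dpi (right) and of the 3 ADP/ATP carriers, with TMM scaling (horizontal) and with library totals (vertical); red points change sign. Points lie below the dashed line of equality, and slc25a3b and slc25a20 stay above 0 and slc25a42 below 0 on both scales; the points furthest left belong to genes with 0 or 1 count at 7 dpi.

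Other mitochondrial genes were counted in the same way. Of 92 nuclear genes of oxidative phosphorylation 1 rose and 63 fell at 3 dpi (median -1.13), 81 rose and 0 fell at 7 dpi (median 1.77), 90 were higher and 0 lower at 7 dpi than at 3 dpi (median 2.94), and 3 were higher and 50 lower in young hearts than in control (median -0.88). The 23 citric acid cycle genes followed with 0 higher and 11 lower, 12 and 0, 16 and 1, and 0 and 17 in the same comparisons. Of 28 outer membrane pores and other metabolite carriers 0 rose and 8 fell at 3 dpi, 8 and 4 did so at 7 dpi, 16 and 2 from 3 to 7 dpi, and 8 and 12 in young hearts. Among 20 genes of import into and insertion in the mitochondrial membranes, through which SLC25 proteins pass, the counts were 1 and 1, 16 and 1, 15 and 1, and 11 and 1. The 13 tested regulators of mitochondrial biogenesis gave 1 and 1, 3 and 3, 5 and 3, and 1 and 5. The 13 mitochondrially encoded genes gave 0 and 6, 12 and 0, 13 and 0, and 0 and 11. The median of the SLC25 members in these comparisons was -0.43, -0.13, 0.24 and 0.23, whereas that of all genes was 0.003, -0.13, -0.21 and 0.14. Of all genes tested, 9.05% were higher and 6.55% lower at 3 dpi, and 18.7% and 20% at 7 dpi. The shares were 22.8% and 28.1% from 3 to 7 dpi, and 32.6% and 27.6% in young hearts. The list counts are under TMM scaling only. Library totals moved the median of all genes by -1.24 at 7 dpi against control and by -1.68 against 3 dpi. The difference between these lists and the family was not tested.

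Marker genes of several cell types moved with the same groups. At 3 dpi 8 of 10 macrophage markers rose and 0 fell, with summed levels of 1673 and 934 CPM against 617 and 904 CPM in control, and 5 of 5 smooth muscle markers rose (783 and 726 CPM against 194 and 119 CPM). Of 6 neutrophil markers 2 rose and 3 fell at 3 dpi, and of 7 epicardial and fibroblast markers 1 rose and 0 fell. No endothelial marker of 7 passed. The 9 erythroid, 3 liver and 6 skeletal muscle markers tested had 0 higher and 1 lower in each list. Of 11 cardiomyocyte markers 0 rose and 1 fell at 3 dpi, 4 rose and 4 fell at 7 dpi, and all 11 were lower in young hearts (median -3.34). At 7 dpi 5 of 6 neutrophil markers, 2 of 10 macrophage markers and 1 of 7 epicardial and fibroblast markers were lower than in control and none of these lists had a higher one. Of 7 endothelial markers 4 were lower and 2 higher at 7 dpi. All 5 smooth muscle markers, 4 of 6 skeletal muscle markers and 4 of 9 erythroid markers were higher at 7 dpi, with 0 lower. In young hearts macrophage markers summed to 10.22 and 10.03 CPM, with all 10 lower than in control, 4 of 6 skeletal muscle markers were higher and 2 lower, and of 3 tested liver markers 1 was higher and 1 lower. Of 6 neutrophil markers 2 were higher and 3 lower in young hearts, and of 5 smooth muscle markers 3 and 1. The 7 endothelial markers had 1 higher and 5 lower, and the 7 epicardial and fibroblast markers likewise 1 and 5. Summed skeletal muscle markers stood at 1253 and 1248 CPM in young hearts against 3593 and 4937 CPM in control. Marker counts and levels are under TMM scaling only, and the shares of all genes are those given above for the mitochondrial lists. The part of these cell types in the levels of SLC25 genes was not tested.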

How the data were processed

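Raw read counts per Ensembl gene were deposited by the authors; per the submitters' processing notes reads were aligned with TopHat2 2.0.13 to GRCz10 and HTSeq was used. The authors' second table holds RPM values of the adult libraries for 23350 genes, each equal to a deposited count over its library total (relative tolerance 1e-04, 100% of values); its replicate numbers for control are reversed and those of the count table were used. The annotation release and the use of strand in counting are not stated, so reads of overlapping or antisense genes cannot be told apart. All 8 libraries entered 1 fit in R 4.3.3 with edgeR 4.0.16: filterByExpr (19330 genes kept), TMM, the quasi-likelihood test with 4 residual degrees of freedom, Benjamini-Hochberg adjustment over all genes tested and a threshold of 0.05. Standard errors were back-calculated from the F statistic. Counts were simulated for 3 dpi against control with 100 of 19330 genes changed 2-fold and 100 changed 4-fold. They were drawn with the spread fitted for their mean level, without differences in composition between libraries. The procedure called 24% of genes changed 2-fold and 70% of genes changed 4-fold, with 7 false calls among 101. The data gave 3015 calls in that comparison, so these shares do not measure the power of the tests on the data. Alternatives were other scalings, no filter, DESeq2 1.42.0, fits of 2 groups, a replicate block and leaving out each library. Every member was a candidate for naming, and 1 is counted but not reported by name here. For other lists counts are given, with medians or summed levels for some of them. Members, lists and tests were chosen with earlier results of these data known. Marker and pathway lists comprise 6 mitochondrial and 9 cell type lists.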

Additional observations from a re-analysis of the deposited data

Results flagged for a closer look

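Both slc25a11, the oxoglutarate carrier, and slc25a40, a relative of the glutathione carrier, were lower than control at 3 dpi and higher than control at 7 dpi, with the difference between the times past the threshold. slc25a11 changed by -0.86 at 3 dpi and by 1.07 at 7 dpi, and 7 dpi against 3 dpi gave 1.93. slc25a40 changed by -0.92 at 3 dpi and by 0.83 at 7 dpi, and 7 dpi against 3 dpi gave 1.76. The 2 comparisons with control share its libraries, and the test of 7 dpi against 3 dpi does not use them for its means. With library totals the 7 dpi values against control were -0.19 for slc25a11 and -0.42 for slc25a40, and the differences between the times, 0.25 and 0.06, did not pass. The 3 dpi calls against control were near the threshold (edgeR adjusted p = 0.0422 for slc25a11 and 0.0435 for slc25a40). Both were lost under library totals (adjusted p = 0.204 and 0.21) and in the fit of the 2 groups alone (adjusted p = 0.111 and 0.0853). Both were also lost without some libraries, as given above, with values of -1.25 to -0.56 and -1.16 to -0.72. The 7 dpi value of slc25a40 against control ran from 0.55 to 1.02.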

How the results depend on the processing

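Relative log expression factors, no filter, DESeq2 and fits of the 2 groups alone kept each count of SLC25 calls within 1.5 times its value, while the fit of 3 dpi and control alone called 1823 of all genes in place of 3015, and library totals called 11770 at 7 dpi against control in place of 7486. Library totals also turned the sign of 6 members at 7 dpi against control, namely slc25a25a (-0.193), slc25a40 (-0.4232), slc25a46 (-0.4904), slc25a11 (-0.1858), slc25a5 (-0.0146) and slc25a12 (-0.3932), and of 8 at 7 dpi against 3 dpi, namely slc25a39 (-0.0618), slc25a25a (-0.8857), slc25a46 (-0.6746), slc25a28 (-0.3665), slc25a16 (-0.857), slc25a21 (-0.8112), slc25a47b (-0.4637) and slc25a12 (-0.1989). Of those reversed at 7 dpi against 3 dpi, slc25a16, slc25a25a, slc25a21 and slc25a46 passed as lower under library totals (edgeR adjusted p = 0.00602, 0.014, 0.024 and 0.0451). These changes follow the shift of the median of all genes between the scalings. Leaving out 1 library at a time gave 3 to 13 SLC25 calls at 3 dpi against control (985 to 3287 of all genes) and 11 to 21 at 7 dpi against control (4093 to 7019 of all genes). At 7 dpi against 3 dpi the members' median log2 fold change in these fits was 0.08 to 0.31, beside -0.30 to -0.10 for all genes. For young against control it was 0.10 to 0.21, beside 0.09 to 0.18. Where 1 library is left, it is assumed to vary like the other groups. For slc25a6 at 3 dpi, the log2 fold change against control ran from -0.1088 to 5.8883; the higher value comes from leaving a control library with 0 counts, so it depends on the prior count and is no estimate. With the replicate number as a block the SLC25 calls numbered 11, 20, 32 and 23 and those of all genes 2650, 6854, 9183 and 10989, in the order 3 dpi and 7 dpi against control, 7 dpi against 3 dpi, and young against control. The block lost slc25a40 and slc25a47a at 3 dpi, slc25a46 and slc25a12 at 7 dpi against control, and slc25a51b in young hearts. No filter lost slc25a46 at 7 dpi against control and slc25a51b in young hearts. Fits of the 2 groups alone lost slc25a40, slc25a11, slc25a28 and slc25a5 at 3 dpi. At 7 dpi such fits lost slc25a46, slc25a37 and slc25a35 against control, and slc25a25b, slc25a15b and slc25a47b against 3 dpi. In the fit of 7 dpi and 3 dpi alone, slc25a23b had too few counts to be tested, so 28 of 32 calls were kept. Deviations of same-numbered libraries had correlations of -0.183 to 0.068 over 6 pairs of groups. With 2 libraries a group, and control numbers that differ between the authors' tables, this cannot show whether such libraries share a batch. An adjustment of the slc25a4 share for coding length was planned and not run, since no lengths were used here. In the simulation with 2 libraries a group, 24% of 2-fold changes were called at 3 dpi against control. It changed few genes and no library composition, so that share is not the power of these data. Members with few counts are limited by depth.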

Other observations

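Of the 7 genes that carry an SLC25 name in the second name table and were not members, and of the uncoupling protein genes, several differed between groups. They were looked up by name, and their values, under TMM scaling only, are given without an explanation. slc25a55b (ENSDARG00000013749) had 5.80 and 4.42 CPM in young hearts, 20.2 and 27.9 CPM in control, 3.71 and 7.06 CPM at 3 dpi and 34.7 and 32.5 CPM at 7 dpi. It was lower than control at 3 dpi (-2.16, SE 0.33, edgeR adjusted p = 0.00279) and in young hearts (-2.24, SE 0.33, adjusted p = 0.000213). slc25a22a (ENSDARG00000020718) had 79 and 110 counts in young hearts, 13 and 5 in control, 49 and 58 at 3 dpi, and 1 and 0 at 7 dpi. SLC25A34 (ENSDARG00000087401) had 2.415 and 1.90 CPM in young hearts and 3.28 and 4.66 CPM in control. Its level was 4.05 and 1.92 CPM at 3 dpi and 15.45 and 14.4 CPM at 7 dpi. It was higher at 7 dpi than in control (1.90, SE 0.41, adjusted p = 0.00522) and than at 3 dpi (2.32, SE 0.42, adjusted p = 0.00114). ucp1, the founding uncoupling protein gene, had 123 and 181 counts in young hearts and 0 to 2 in each adult library. The gene named ucp3 in both tables (ENSDARG00000091209) had 4.94 and 5.45 CPM in young hearts, 35.6 and 43.4 CPM in control, 7.59 and 7.22 CPM at 3 dpi and 32.1 and 22.8 CPM at 7 dpi, and was lower than control at 3 dpi (-2.41, SE 0.26, adjusted p = 0.000414) and in young hearts (-2.92, SE 0.26, adjusted p = 8.33e-06). Another gene, ENSDARG00000043154, has the symbol ucp3 in the deposited table and the name UCP2 in the other. Its level was 76.81 and 72.34 CPM in young hearts and 57.36 and 68.21 CPM in control. At 3 dpi it was 117.7 and 57.91 CPM, and at 7 dpi 117.4 and 171.6 CPM. That gene was higher than control at 7 dpi (1.2022, SE 0.3217, adjusted p = 0.0139). It did not pass at 3 dpi (0.4829, adjusted p = 0.348) or in young hearts (0.2476, adjusted p = 0.518).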
